A study of Mus musculus with 14 samples.

Results

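The genes described here are 7 rows of a left ventricle expression table chosen by their measured fall in C57Bl/6N mice under angiotensin II, as large falls in genes little studied in the heart: 1110017D15Rik, ANO10, IFT81, PKD2L2, WNK2, LGALS4 and CES3. They are 7 of 18138 gene rows and were found by their names in the table, which writes gene names in capitals. All 7 passed the filter on low signal and are among the 9408 rows tested. Male mice of the C57Bl/6N and C57Bl/6J substrains were infused with angiotensin II for 48 h from a pump under the skin or were sham operated. The dose was 500 ng/kg per minute in the series title and 500 ng/kg per hour in the design text, and the sources used here do not settle which. Each substrain had 4 angiotensin II arrays and 3 sham arrays, 14 in all, of left ventricle RNA. The labels give no age, batch, chip or scan date. Nor do they say that each sample is a separate mouse, and the p-values then reflect sample-to-sample spread, which may be technical.

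As background, angiotensin II constricts vessels and acts on the heart, where it drives hypertrophy and fibrosis. C57Bl/6J and C57Bl/6N are substrains of one inbred line that were bred apart. The 7 genes belong to different families. ANO10 encodes an anoctamin, a membrane protein family of ion channels and lipid scramblases, and loss of human ANO10 causes a cerebellar ataxia. IFT81 encodes a subunit of the intraflagellar transport B complex, which carries tubulin into growing cilia. PKD2L2 encodes a polycystin-like member of the TRP channel superfamily. WNK2 encodes a WNK kinase, a family that regulates cation-chloride cotransporters through the kinases SPAK and OSR1. LGALS4 encodes galectin 4, a sugar-binding protein best known from gut epithelium. The row CES3 names a carboxylesterase, an enzyme class that hydrolyses lipid and drug esters. 1110017D15Rik has the older names Smrp1 and Cbe1, which tie it to the spermatid manchette and to ciliated airway cells. The name CES3 is an older name of 2 RefSeq genes, Ces1d and Ces3a, so the row keeps the name in the file.

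The 9 cardiomyocyte markers with a row were above background on all 14 arrays. No array was above background, as defined further below, for any of 7 gut epithelium markers or of 6 lung epithelium markers. Cdx1 of the gut list still passed the filter on low signal, which uses the detection p-value alone. Above background on at least 1 array were 4 of 10 ciliated cell markers and 4 of 10 adipocyte markers. Nnt, which carries a deletion in C57BL/6J, was above background on 0 of the 14 arrays and so does not check the substrain labels. The share of rows detected per array was 46.4% to 49.3%, and normalised values of arrays of the same group correlated at 0.976 or higher. The background share is taken from the same fit: in C57Bl/6J 1.37% of the 9408 rows were called at an adjusted p under 0.05 in limma (0.999% higher and 0.372% lower), and in C57Bl/6N 17.4% (9.45% higher and 7.92% lower). Of the rows called in C57Bl/6J 72.9% were higher, against 47.8% of those called with median scaling in place of quantile normalisation.

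In C57Bl/6N the 7 genes were lower on every angiotensin II array than on every sham array, by a mean of 1.15 to 1.45 on the scale of normalised log2 intensity in the 5 that were above background on all arrays. PKD2L2 and 1110017D15Rik were not above background on any treated C57Bl/6N array, so their falls there are only bounded. These values chose the genes, so they are a description with no test, and the 15.5% of all tested rows that were likewise lower on every angiotensin II array is given beside them only for scale. In C57Bl/6J, on arrays that the choice did not use, 0 of the 7 passed an adjusted p under 0.05 in limma, and 2, ANO10 and IFT81, had an unadjusted p under 0.05, as did 15.3% of all tested rows. The median C57Bl/6J change of the 7 was -0.28, against -0.01 over all tested rows. The mean change there was below 0 in 6 of the 7, among them WNK2 at -0.03, whose sign turned under some alternatives. The share of all tested rows below 0 is not given, so nothing is read from that count. The median of the 7 in C57Bl/6N was -1.21, or -1.18 with the 2 at their bounds, against -0.04 over all tested rows. In these whole-ventricle samples, fewer cells of a type and less RNA per cell cannot be told apart.

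**Figure D1:**
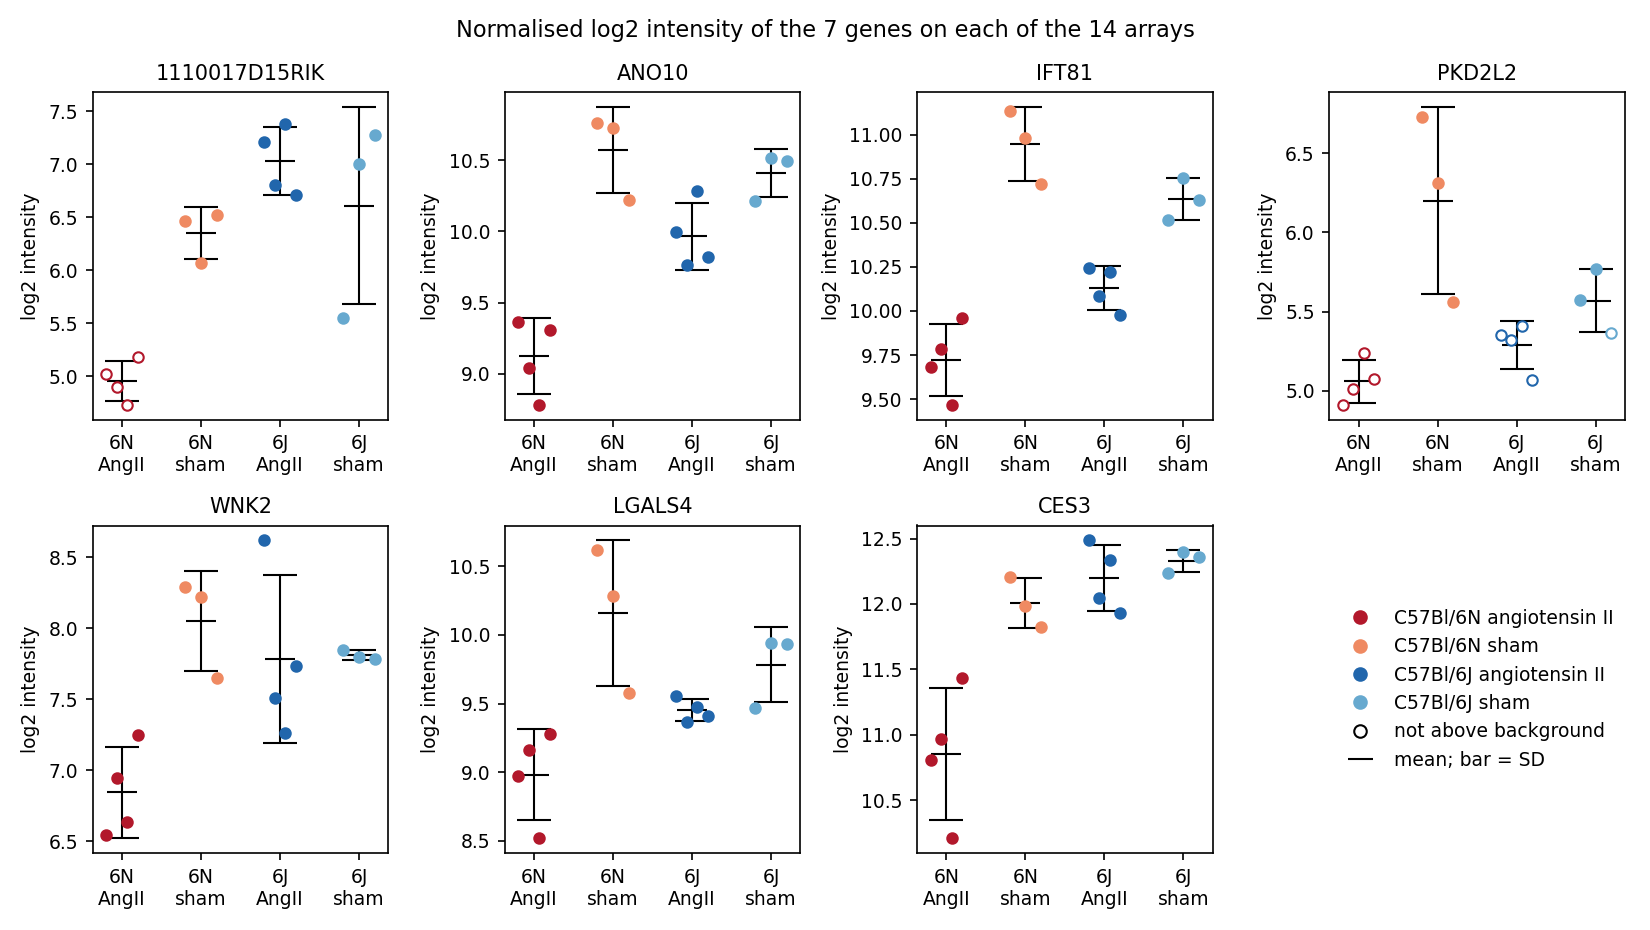
Normalised log2 intensity of each gene (vertical axis, with its own range in each panel) on the 4 angiotensin II and 3 sham arrays of C57Bl/6N and then of C57Bl/6J. Points are arrays, open points are not above background, and the bar is the mean and SD; the C57Bl/6N angiotensin II group has the lowest mean in all 7 panels.

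Ordered by the size of the fitted C57Bl/6N fall, on which they were chosen, the 7 genes held ranks 4 to 8, 10 and 11 among the 9408 rows. The ranks of 1110017D15Rik (5) and PKD2L2 (11) rest on treated arrays that were not above background and are not measured positions. Erdr1 (-2.15), Kcnv2 (-1.78) and Scn4b (-1.61) had larger falls. Kcnv2 encodes a potassium channel subunit and Scn4b a sodium channel subunit. Kcnip2, a subunit of the transient outward potassium current, lay between LGALS4 and CES3 at -1.15. Just inside the lower end was PKD2L2, with a fitted value of -1.14, and just outside it were Gnb3 (-1.14), Cpeb3 (-1.12) and Gbp10 (-1.12).

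ANO10 had the largest fall of the 7. Its normalised log2 intensity on C57Bl/6N angiotensin II arrays 1 to 4 was 9.36, 9.04, 8.78 and 9.31, against 10.76, 10.73 and 10.22 on the C57Bl/6N sham arrays. The difference of means was -1.45 ± 0.17 (SE), 2.73-fold lower, and the groups did not overlap. On the C57Bl/6J angiotensin II arrays it was 9.998, 9.76, 10.28 and 9.82, against 10.21, 10.52 and 10.49 on the C57Bl/6J sham arrays. Here angiotensin II array 3 lay above sham array 1, so these groups overlapped. The C57Bl/6J change was -0.44 ± 0.17 (SE), with a 95% interval of -0.81 to -0.07 that is not adjusted for the number of rows, and it did not pass the test (limma adjusted p = 0.238). All 14 arrays had a detection p-value of 0, with deposited signals of 594 to 1965.

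IFT81 had the smallest standard error of the 7. Its log2 intensity was 9.68, 9.78, 9.47 and 9.96 on the C57Bl/6N angiotensin II arrays, against 11.14, 10.99 and 10.72 on the C57Bl/6N sham arrays, a change of -1.23 ± 0.13 (SE). On the C57Bl/6J angiotensin II arrays it was 10.25, 10.09, 10.22 and 9.97, against 10.52, 10.75 and 10.63 on the C57Bl/6J sham arrays. IFT81 was the 1 gene of the 7 for which every C57Bl/6J angiotensin II array lay below every C57Bl/6J sham array, as was the case for 9.19% of all tested rows. None of the 7 lay above the shams on every treated C57Bl/6J array, against 7.94% of all tested rows. The C57Bl/6J change of -0.50 ± 0.13 (95% interval -0.78 to -0.23) missed the threshold (limma adjusted p = 0.0723). With array weights it passed (-0.58, limma adjusted p = 0.00361), and over the other alternatives, arrays left out included, the adjusted p was 0.0502 to 0.274. IFT81 held rank 191 among the C57Bl/6J falls, the highest of the 7, ahead of ANO10 at 273.

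LGALS4 was above background on all 14 arrays. It had log2 intensities of 8.98, 9.16, 8.52 and 9.28 on the C57Bl/6N angiotensin II arrays, against 10.62, 10.28 and 9.58 on the C57Bl/6N sham arrays, a change of -1.18 ± 0.22 (SE). Sham array 3 was the lowest of its group and still lay above the highest treated array. On the C57Bl/6J angiotensin II arrays it had 9.55, 9.37, 9.47 and 9.41, against 9.47, 9.94 and 9.94 on the C57Bl/6J sham arrays, and these groups overlapped. The C57Bl/6J change was -0.33 ± 0.22 (95% interval -0.80 to 0.13, limma adjusted p = 0.489). Lgals6, a close paralogue of LGALS4, has its own row, and without probe sequences it is not known whether each row reads only its own gene.

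CES3 had deposited signals of 1683 to 5951, with a detection p-value of 0 on every array. Its log2 intensity was 10.81, 10.97, 10.21 and 11.43 on the C57Bl/6N angiotensin II arrays, against 12.21, 11.98 and 11.83 on the C57Bl/6N sham arrays, a change of -1.15 ± 0.22 (SE). The treated arrays differed among themselves more than the shams did, with an SD of 0.50 (n = 4) in the treated group and 0.19 (n = 3) in the sham group. On the C57Bl/6J angiotensin II arrays it was 12.49, 12.05, 12.33 and 11.93, against 12.24, 12.40 and 12.36 on the C57Bl/6J sham arrays, and the groups overlapped (-0.13 ± 0.22, 95% interval -0.59 to 0.33, limma adjusted p = 0.817). CES3 was the 1 gene of the 7 whose C57Bl/6N sham arrays all lay below the C57Bl/6J sham arrays, by a mean of 0.33, as was the case for 7.61% of all tested rows.

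WNK2 was the gene with the widest spread among C57Bl/6J treated arrays. Its log2 intensity was 6.54, 6.95, 6.64 and 7.25 on the C57Bl/6N angiotensin II arrays, against 8.29, 8.22 and 7.65 on the C57Bl/6N sham arrays, a change of -1.21 ± 0.26 (SE). On the C57Bl/6J angiotensin II arrays it was 8.62, 7.51, 7.27 and 7.73, against 7.85, 7.79 and 7.79 on the C57Bl/6J sham arrays. Array 1 of the treated group was above all C57Bl/6J shams and the other 3 were below them. The change was -0.03 ± 0.26 (95% interval -0.58 to 0.53, limma adjusted p = 0.970). Without C57Bl/6J angiotensin II array 1 it was -0.31, without array 2 it was 0.06 and without array 3 it was 0.14, none past the threshold. With the background inferred from all rows, the C57Bl/6N change was -0.41 and the C57Bl/6J change 0.04.

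PKD2L2 and 1110017D15Rik lay near background. PKD2L2 had deposited signals of 75.4, 80.3, 102 and 74.9 on the C57Bl/6N angiotensin II arrays, against 174, 119 and 90.7 on the C57Bl/6N sham arrays. It was above background on 0 of the 4 treated and 3 of the 3 sham arrays. In the processing reported it was at least 1.68-fold lower in treated C57Bl/6N ventricles. In C57Bl/6J it had signals of 82.4, 94.3, 81.2 and 71.6 on the angiotensin II arrays, against 96.9, 110 and 83.6 on the sham arrays. It was above background on 0 of the 4 treated and 2 of the 3 sham arrays there, and the groups overlapped. The bound on the means was 1.02-fold lower, which leaves out the spread among arrays, so no minimum fall is shown. The normalised change was -0.28 ± 0.20 (SE; 95% interval -0.71 to 0.15, limma adjusted p = 0.540). The 5 arrays that took PKD2L2 past the detection filter were all sham arrays, so the filter itself favoured a fall.

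1110017D15Rik was the 1 gene of the 7 with a mean C57Bl/6J change above 0. It had deposited signals of 80.5, 74.9, 71.7 and 78.7 on the C57Bl/6N angiotensin II arrays, against 153, 108 and 131 on the C57Bl/6N sham arrays. It was above background on 0 of the 4 treated and 3 of the 3 sham arrays. In the processing reported it was at least 1.86-fold lower in treated C57Bl/6N ventricles. In C57Bl/6J the signals were 178, 174, 179 and 128 on the angiotensin II arrays, against 96.0, 189 and 185 on the sham arrays. Sham array 1 had the lowest of these 7 signals, and the treated arrays overlapped the range of the shams. The normalised C57Bl/6J change was 0.42 ± 0.31 (SE; 95% interval -0.24 to 1.07, limma adjusted p = 0.551), and without C57Bl/6J sham array 1 it was -0.12 (limma adjusted p = 0.859).

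The row of 1110017D15Rik is of another kind than the other 6. Most rows have detection p-values that are whole multiples of 1 step, and those of 1110017D15Rik were not, as for 3923 rows in all. Such rows were taken to combine several probes. Its detection p-value ran from 0.0319 to 0.386 and was under 0.05 on 5 arrays, among them C57Bl/6N angiotensin II array 4 with a signal of 78.7 but not C57Bl/6N sham array 1 with 153. For such rows, above background therefore means a signal no lower than the dimmest 1-probe row detected on the same array, 84.2 to 112 over the arrays. For the other rows it means a detection p-value under 0.05. For these dim rows the C57Bl/6N change also depended on how background was handled. For 1110017D15Rik it was -1.39 in the processing reported, -0.72 with no background correction, -0.84 with the deposited value table, -0.83 with an offset of 50 and -0.14 with background inferred from all rows. For PKD2L2 it was -1.14, -0.59, -0.68, -0.69 and -0.12 in the same order. Under each of these alternatives the fitted fall was smaller than the bound given above, 1.86-fold for 1110017D15Rik and 1.68-fold for PKD2L2. Those bounds hold only for the processing reported.

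**Figure D2:**
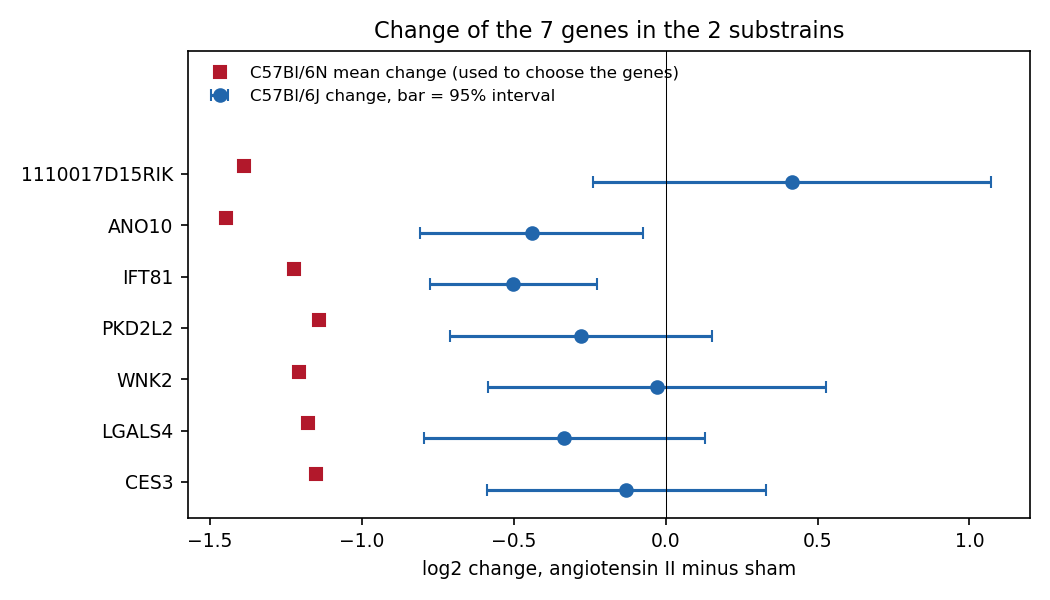
Log2 change, angiotensin II minus sham, of each gene. Squares are C57Bl/6N means, which were used to choose the genes, and circles are C57Bl/6J changes with unadjusted 95% intervals from the limma fit; 5 of the 7 intervals include 0, and those of ANO10 and IFT81 do not.

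The order of the 4 group means separated 2 patterns. ANO10, IFT81, PKD2L2, WNK2 and LGALS4 were lowest in C57Bl/6N angiotensin II, then C57Bl/6J angiotensin II, then C57Bl/6J sham, and highest in C57Bl/6N sham. In these 5 genes the sham arrays of the substrains overlapped, so the order of their shams was within the spread. The places of WNK2 in C57Bl/6J angiotensin II and sham differed by 0.03 and turned round under some alternatives, and PKD2L2 was not above background in either angiotensin II group, so neither order is settled. CES3 and 1110017D15Rik were also lowest in C57Bl/6N angiotensin II, but C57Bl/6N sham came next, below both C57Bl/6J groups. In 1110017D15Rik the C57Bl/6N and C57Bl/6J sham arrays overlapped. The C57Bl/6N arrays that chose the genes enter each of these comparisons, so no test is given.

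Under angiotensin II, every C57Bl/6N array lay below every C57Bl/6J array in 6 of the 7 genes, the exception being PKD2L2. Over all tested rows that share was 7.26%, and nothing is read from the count because the choice favoured low values on the C57Bl/6N treated arrays. The mean difference, C57Bl/6N minus C57Bl/6J, was -1.35 for CES3, -0.94 for WNK2, -0.84 for ANO10, -0.47 for LGALS4 and -0.41 for IFT81. PKD2L2 was above background on 0 of 4 C57Bl/6N and 0 of 4 C57Bl/6J angiotensin II arrays, so no difference is given. 1110017D15Rik was above background on 0 of 4 C57Bl/6N and 4 of 4 C57Bl/6J angiotensin II arrays. In the processing reported its level there was at least 2.97-fold lower in C57Bl/6N. The difference between the responses, C57Bl/6N minus C57Bl/6J, ran from -1.18 for WNK2 to -0.72 for IFT81 over the 5 genes above background on all arrays. With background inferred from all rows it was -0.44 for WNK2.

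**Figure D3:**
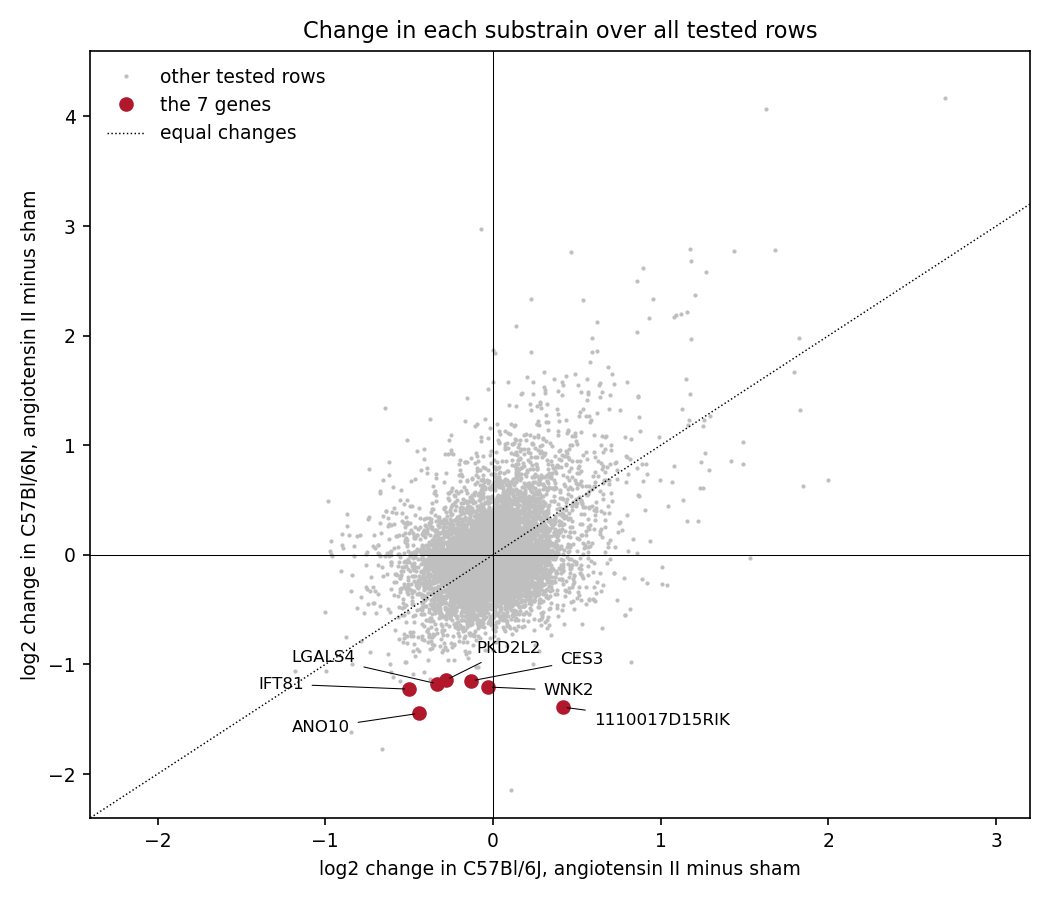
Log2 change, angiotensin II minus sham, in C57Bl/6J (horizontal) and C57Bl/6N (vertical) for the 9408 tested rows, with the 7 genes in red and a dotted line of equal changes. The 7 genes lie between -1.45 and -1.14 on the vertical axis, by choice, and between -0.50 and 0.42 on the horizontal axis.

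Several of the 7 genes varied together among arrays of the same group. On C57Bl/6N angiotensin II array 4, 5 of the 7 had their highest value of that group, and all 7 were above their group mean, by 0.01 to 0.58. On C57Bl/6N angiotensin II array 3, 5 of the 7 had their lowest value. Among the C57Bl/6N shams, array 1 was the highest in 6 of the 7 and array 3 the lowest in 6 of the 7. Deviations from the group mean correlated over the 14 arrays at r = 0.91 between IFT81 and CES3 (Spearman rho 0.95), 0.90 between IFT81 and LGALS4 (rho 0.90) and 0.79 between ANO10 and IFT81 (rho 0.73). Pairs with little or no correlation were 1110017D15Rik and WNK2 (r = 0.00), and 1110017D15Rik and PKD2L2 (r = -0.05). Of the 21 pairs, 11 (52.4%) had r above 0.5, against 11.4% of all pairs of tested rows. The genes share the same 14 arrays, so whatever sets an array apart enters every pair.

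**Figure D4:**
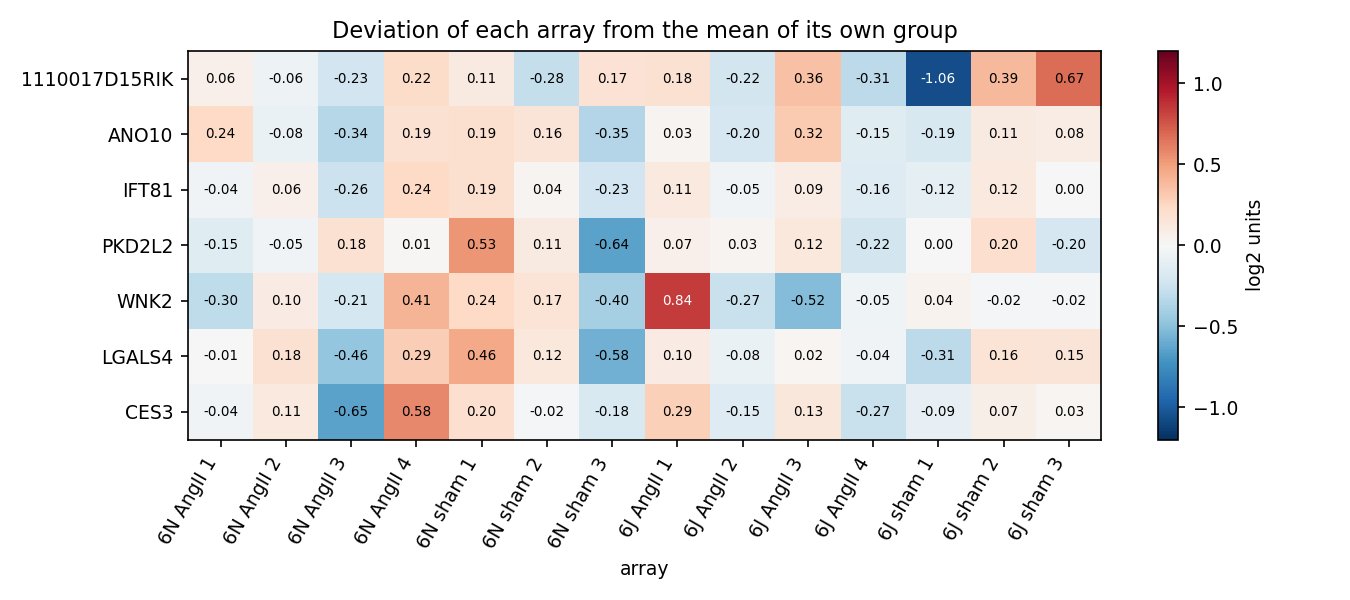
Deviation of each array (columns) from the mean of its own group, in log2 units, for each gene (rows), blue below and red above the group mean. C57Bl/6N angiotensin II array 4 is above its group mean in all 7 genes and array 3 is below it in 6 of the 7.

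The same C57Bl/6N angiotensin II arrays differed in markers of other cells. With each row set against its average over all sham arrays, 13 tested macrophage and monocyte markers had a median log2 difference of 1.104, 0.84, 1.103 and 0.23 on arrays 1 to 4, and of -0.21, -0.20 and 0.14 on the C57Bl/6N shams. For 9 tested cell cycle genes the median was 1.88, 1.54, 2.06 and 0.86 on arrays 1 to 4, and 0.05, -0.09 and -0.03 on the C57Bl/6N shams. So array 3, lowest in 5 of the 7 genes, had the highest cell cycle median, and array 4, highest in 5 of the 7, had the lowest of both. The median of 9 cardiomyocyte markers was -0.31, -0.14, -0.39 and -0.03 on arrays 1 to 4, against 0.09, -0.01 and 0.02 on the C57Bl/6N shams. The median of 9 tested endothelial markers was -0.30, -0.32, -0.26 and -0.03 on arrays 1 to 4, against 0.01, -0.16 and -0.05 on the C57Bl/6N shams. Of these cardiomyocyte and endothelial markers limma called Emcn alone in C57Bl/6N (log2 change -0.36, adjusted p = 0.0247). The lowest limma adjusted p of a cardiomyocyte marker was 0.0660, for Tnni3 (-0.35). The medians of other lists set these arrays less apart, though some genes of those lists changed. The median of 9 fibroblast markers was 0.16, 0.17, 0.21 and 0.14 on arrays 1 to 4, against 0.20, -0.11 and -0.07 on the C57Bl/6N shams. For 7 tested smooth muscle and pericyte markers it was 0.01, 0.26, 0.20 and -0.10, against -0.05, -0.07 and -0.06. These medians do not speak for each gene. Of the fibroblast markers limma called Col1a1 (log2 change 1.87, adjusted p = 0.0185), Col1a2 (1.48, 0.00349), Col3a1 (1.45, 0.00112) and Lum (0.64, 0.00359) higher in C57Bl/6N. It called Gsn lower (-0.67, 0.0186). Of the smooth muscle list it called Acta2 (0.74, 0.00359), Tagln (0.59, 0.0301) and Cspg4 (0.39, 0.0424) higher.

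Summed over the lists, the 14 macrophage and monocyte markers gave intensities of 11137 to 24673 on the C57Bl/6N angiotensin II arrays and 7690 to 10386 on the C57Bl/6N shams, and 9169 to 11119 and 9396 to 10883 on the C57Bl/6J angiotensin II and sham arrays. The 13 cell cycle genes gave 727 to 2041 and 240 to 293 in C57Bl/6N, and 372 to 871 and 271 to 335 in C57Bl/6J, in the same order. The 9 cardiomyocyte markers gave 192510 to 215532 and 213383 to 233360 in C57Bl/6N, and 205184 to 222974 and 207180 to 220387 in C57Bl/6J. The 7 atrial markers gave 46823 to 49677 and 10974 to 33002 in C57Bl/6N, and 38662 to 43546 and 17488 to 25193 in C57Bl/6J. The atrial sums do not speak for the whole list. In C57Bl/6N limma called Nppa higher (log2 change 1.47, adjusted p = 0.00150) and Stard10 lower (-0.65, adjusted p = 0.00856). The median log2 difference of 6 tested atrial markers was -0.40, -0.30, -0.32 and -0.16 on C57Bl/6N angiotensin II arrays 1 to 4. On the C57Bl/6N shams it was -0.94, 0.60 and 0.10. The 10 endothelial markers gave 8269 to 10122 and 9741 to 10264 in C57Bl/6N, and 9357 to 10410 and 10409 to 11277 in C57Bl/6J. All 14 macrophage and monocyte markers were above background on all 14 arrays, though Cd163 did not pass the filter on low signal. Ccnb2, Bub1 and Ccna2 of the cell cycle list were above background on none. Of the atrial list Bmp10, and of the endothelial list Kdr, were above background on none. The part of these cells in the falls of the 7 genes was not tested.

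The relatives of the 7 genes, 110 genes in 6 lists of families and pathways, were mostly not called. Ces1d and Ces3a, either of which the row CES3 may name, are counted in the 110 but had no row of their own. Of the 110 genes 94 had a row and 56 were tested. In C57Bl/6N 2 were higher and 7 lower, 16.1% called against 17.4% of all tested rows. Their median C57Bl/6N change was -0.12, against -0.04 over all tested rows. In C57Bl/6J 0 were higher and 2 lower, 3.57% called against 1.37% of all tested rows, with a median of -0.07 against -0.01 over all tested rows.

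Of 9 other anoctamins, 3 were tested and 0 were called by limma in either substrain. At an unadjusted p under 0.05 there were 0 in C57Bl/6J, against 15.3% of all tested rows. There was 1 in C57Bl/6N, where no such share of all rows is given. Ano4 had a C57Bl/6N change of -0.43 ± 0.15 (SE, limma adjusted p = 0.0661) and Ano6, a calcium-activated lipid scramblase, of -0.12 ± 0.23 (adjusted p = 0.771). Ano6 was above background on only 1 angiotensin II and 1 sham array of C57Bl/6N, so its change there is hardly measured. Ano1 was above background on 0 of the 7 C57Bl/6N arrays, so no change is given there.

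Of 22 other subunits of the intraflagellar transport complexes, 10 were tested, with a median C57Bl/6N change of -0.04. Ift172, the largest subunit of the B complex, was lower in C57Bl/6N by 0.38 ± 0.10 on the log2 scale (limma adjusted p = 0.0134), with 8.85 ± 0.14 in angiotensin II (SD, n = 4) and 9.23 ± 0.12 in sham (SD, n = 3). Its adjusted p in limma was 0.0642 without C57Bl/6N sham array 1 and 0.0532 with median scaling. Ift88, another B complex subunit needed to build cilia, was lower in C57Bl/6J by 0.53 ± 0.12 (limma adjusted p = 0.0377), with log2 intensities of 6.11 ± 0.09 in angiotensin II (SD, n = 4) and 6.64 ± 0.15 in sham (SD, n = 3). That call was lost without any one of the 7 C57Bl/6J arrays (limma adjusted p = 0.0508 to 0.200) and without C57Bl/6N sham array 2 (0.0544). It was also lost with no background correction (-0.30, 0.0624), the deposited value table (-0.33, 0.0578) and background inferred from all rows (-0.07, 0.0965), and with no filter (0.0570) or the C57Bl/6J arrays only (0.0627). In C57Bl/6N the Ift88 change was -0.07 ± 0.12 (adjusted p = 0.747).

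Of 18 other polycystins and TRP channels, 10 were tested, with a median C57Bl/6N change of -0.15. Of 21 other genes of WNK kinases and cation-chloride cotransport, 13 were tested and 1 was lower in C57Bl/6N: Stk39, the kinase SPAK that WNK kinases phosphorylate, by 0.34 ± 0.11 (limma adjusted p = 0.0427). It was lost without any one of 11 of the 14 arrays, with adjusted p of 0.0535 to 0.119 in limma, and with median scaling (0.0723) or the C57Bl/6N arrays only (0.0873). Wnk1, the widely expressed WNK kinase, had a C57Bl/6N change of -0.13 ± 0.09 (adjusted p = 0.341). In C57Bl/6J limma called 0 genes of these 2 lists, with 2 and 4 at an unadjusted p under 0.05, against 15.3% of all tested rows.

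The galectins moved in both directions in C57Bl/6N. Of 10 other genes in the galectin list, 7 were tested, and 2 were higher and 1 lower, with a median of 0.22. That median includes Lgals3bp (0.41, limma adjusted p = 0.163), which encodes a galectin-binding protein and not a galectin. Lgals3, a galectin abundant in macrophages, was 5.65-fold higher (log2 change 2.50 ± 0.37 SE, limma adjusted p = 0.000648), with 10.46 ± 0.92 in angiotensin II (SD, n = 4) and 7.96 ± 0.37 in sham (SD, n = 3). Lgals1 was 2.15-fold higher (1.11 ± 0.24, adjusted p = 0.00602). Lgals6 was above background on 0 of 4 angiotensin II and 2 of 3 sham arrays and was at least 1.47-fold lower (limma adjusted p = 0.00174). In C57Bl/6J it was above background on 1 of 4 angiotensin II and 3 of 3 sham arrays. It thus passed the detection filter mostly through sham arrays, so the filter itself favoured a fall. The calls of these 3 galectins were kept under every alternative in which they were tested, arrays left out included. With a detection p-value under 0.01 as the filter, Lgals6 was no longer among the rows tested. The fitted Lgals6 change of -0.98 was -0.49 with no background correction and -0.09 with background inferred from all rows, a smaller fall than the bound. In C57Bl/6J limma called 0 galectins, with 2 at an unadjusted p under 0.05, against 15.3% of all tested rows. Lgals3 is also in the macrophage list above.

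Of 30 carboxylesterase and intracellular lipolysis genes, Ces1d and Ces3a among them, 13 were tested, 3 were lower in C57Bl/6N and 1 in C57Bl/6J. The row 2310076L09RIK, an older name of Plin5, a lipid droplet protein of oxidative tissues, was lower in C57Bl/6N by 0.58 ± 0.11 (limma adjusted p = 0.00318) and kept its call under every alternative run. M6PRBP1, an older name of Plin3, was lower by 0.59 ± 0.18 (adjusted p = 0.0353) and was lost without any one of 6 of the 7 C57Bl/6N arrays (adjusted p = 0.0552 to 0.113 in limma), with background inferred from all rows (0.0798), with median scaling (0.0741) and with no filter (0.0708). Dgat2, an enzyme of triglyceride synthesis, was lower by 0.49 ± 0.12 in C57Bl/6N (adjusted p = 0.0148, and 0.0576 without C57Bl/6N sham array 1). Dgat2 was also lower in C57Bl/6J, by 0.54 ± 0.12 (limma adjusted p = 0.0481), a call lost without any one of 11 of the 14 arrays (adjusted p = 0.0538 to 0.189 in limma), with background inferred from all rows (0.0704), with no filter (0.0788) and with the C57Bl/6J arrays only (0.0827). Of the other carboxylesterases in the list, Ces2g alone was tested, with a C57Bl/6N change of 0.13 ± 0.17 (adjusted p = 0.661).

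**Figure D5:**
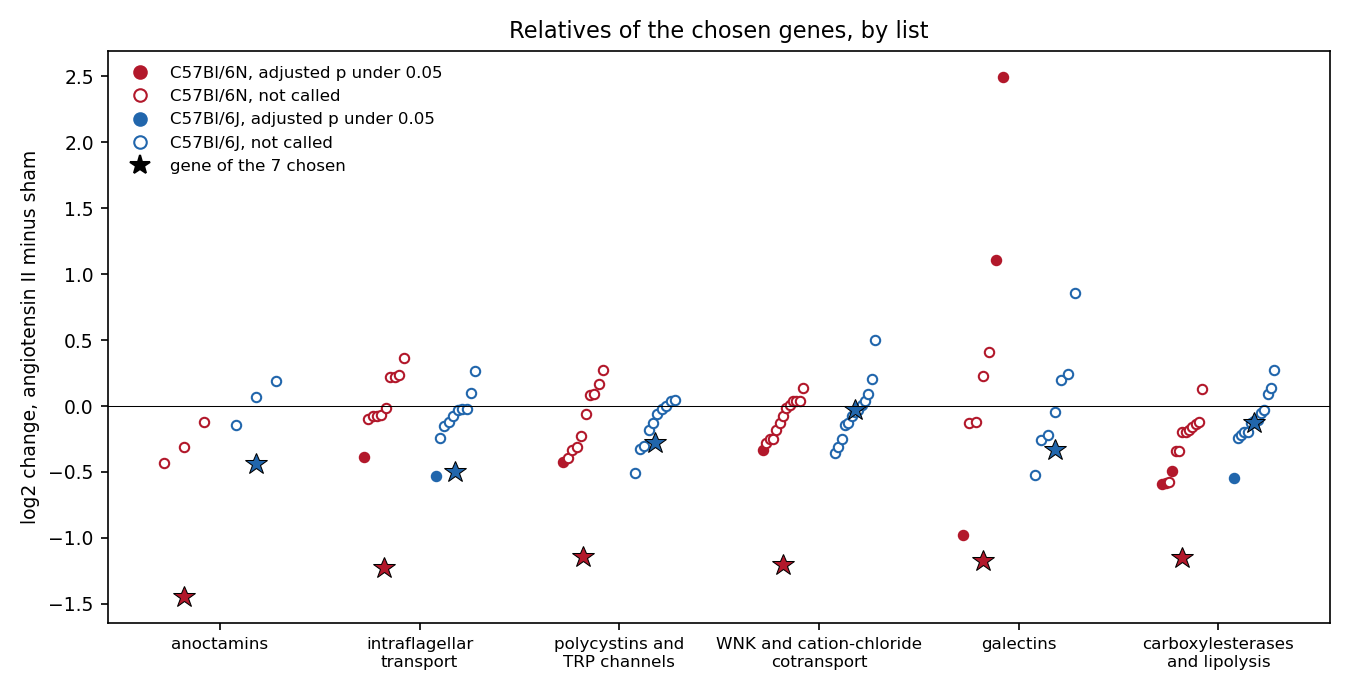
Log2 change, angiotensin II minus sham, of each tested relative in 6 lists, C57Bl/6N in red and C57Bl/6J in blue. Filled circles passed an adjusted p under 0.05 in limma and stars are the chosen genes; in the galectin list Lgals3 and Lgals1 stand above the others at 2.50 and 1.11.

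Genes next to the 7 on the chromosome mostly did not pass the test. For the 6 genes with 1 RefSeq match, the nearest protein-coding gene with a row on each side gave 12 neighbours, of which 9 were tested. Of these limma called 1 in C57Bl/6N, 11.1% against 17.4% of all tested rows, and 0 in C57Bl/6J, against 1.37%. At an unadjusted p under 0.05 there were 3 in C57Bl/6N and 2 in C57Bl/6J, and all 9 had a C57Bl/6N change below 0. Dnaic1, next to 1110017D15Rik with 1 gene without a row between, encodes an intermediate chain of the dynein arms of motile cilia, and was lower in C57Bl/6N by 0.65 ± 0.18 (limma adjusted p = 0.0218). It had log2 intensities of 5.41 ± 0.37 in angiotensin II (SD, n = 4), where 1 of 4 arrays was above background, and 6.07 ± 0.09 in sham (SD, n = 3). The call was lost without C57Bl/6N sham array 1 (adjusted p = 0.0517), sham array 2 (0.0782), angiotensin II array 1 (0.0707) or angiotensin II array 3 (0.0727). With background inferred from all rows its change was -0.06 (adjusted p = 0.0958). In C57Bl/6J the Dnaic1 change was -0.27 ± 0.18 (adjusted p = 0.509). Of the ciliated cell markers 3 were tested, and none was called lower in C57Bl/6N. Limma called Mns1 higher there (log2 change 0.72, adjusted p = 0.00913), though it was above background on only 3 arrays. Foxj1 (-0.07, 0.766) and Tppp3 (0.02, 0.954) were not called.

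The other 8 tested neighbours were not called in either substrain by limma, with C57Bl/6N changes of -0.47 to -0.07. Abhd5, a lipase coactivator beside ANO10, had -0.18 ± 0.10 (SE), and Snrk, on the other side of ANO10, -0.13 ± 0.13. Atp2a2, the sarcoplasmic reticulum calcium pump beside IFT81, had -0.08 ± 0.08. The lowest of the 8 was Reep5, beside PKD2L2, at -0.47 ± 0.16 (limma adjusted p = 0.0510). Ech1, an enzyme of fatty acid oxidation beside LGALS4, had -0.33 ± 0.11 (adjusted p = 0.0554).

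The rows most like each gene over the 14 arrays, by Pearson r of normalised log2 intensity, included 1 other gene of the 7: IFT81 was second nearest to ANO10 (r = 0.94) after Tbc1d10c (r = 0.95). Pex6 was nearest to IFT81 (r = 0.97), Ric8b and Tfb2m followed 9330129D05RIK (r = 0.96) for WNK2 (r = 0.95 each), and Sod2 was nearest to CES3 (r = 0.96). Tnfaip8 was nearest to LGALS4 (r = 0.95), with Ivd and Mecr next (r = 0.95 each), and Repin1 was second for PKD2L2 (r = 0.92). For 1110017D15Rik the nearest were D3ERTD751E (r = 0.91), Kcnd2 (r = 0.90) and Acat1 (r = 0.89). The C57Bl/6N falls of these nearest rows were mostly smaller, -0.49 for Pex6, -0.28 for Sod2 and -0.61 for Acat1, with -1.08 for Tbc1d10c. Each r holds the group differences by which the 7 genes were chosen.

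RefSeq promoter windows of 300 bases, 250 before and 50 after an annotated start, were read for 4 of the 7 genes. Windows of 3 genes are shown because ANO10 and LGALS4 varied together over the arrays and 1110017D15Rik has a start with a facing pair of one motif. Capitals mark matches to 6 short motifs searched on both strands, namely TATAAA of the TATA box, the CCAAT box, the E-box CACGTG, the GC box GGGCGG, the X-box part GTTGCC and the GATA site AGATAA. The sequences are from RefSeq, build GRCm38.p6, 5′ to 3′ on the gene's strand.
ANO10 (chr9:122294374-122294673, minus strand): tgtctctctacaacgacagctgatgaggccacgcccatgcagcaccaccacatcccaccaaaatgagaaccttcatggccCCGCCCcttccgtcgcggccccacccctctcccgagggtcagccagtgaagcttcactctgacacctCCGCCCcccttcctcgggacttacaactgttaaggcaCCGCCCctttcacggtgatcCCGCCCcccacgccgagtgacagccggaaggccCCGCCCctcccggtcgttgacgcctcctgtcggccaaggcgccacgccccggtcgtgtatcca
LGALS4 (chr7:28833544-28833843, plus strand): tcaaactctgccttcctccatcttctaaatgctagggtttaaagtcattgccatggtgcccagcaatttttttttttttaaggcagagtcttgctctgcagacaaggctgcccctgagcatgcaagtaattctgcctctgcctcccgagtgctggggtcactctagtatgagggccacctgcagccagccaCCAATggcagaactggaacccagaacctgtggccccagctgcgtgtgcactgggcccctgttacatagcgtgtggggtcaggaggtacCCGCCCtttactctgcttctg
1110017D15Rik (chr4:41507715-41508014, minus strand): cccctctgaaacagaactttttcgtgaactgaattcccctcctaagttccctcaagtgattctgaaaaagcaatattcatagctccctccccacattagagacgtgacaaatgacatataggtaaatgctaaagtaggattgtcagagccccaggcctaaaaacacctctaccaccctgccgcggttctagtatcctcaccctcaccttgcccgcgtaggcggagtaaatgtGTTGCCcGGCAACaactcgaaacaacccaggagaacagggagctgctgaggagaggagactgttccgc

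The ANO10 window held GGGCGG, the GC box, at 5 places, all on the opposite strand, and was 65.7% G and C, against a median of 52.7% over 27025 genes with a window. GGGCGG was present in 35.9% of those genes. The LGALS4 window held 1 CCAAT, a motif present in 37.9% of genes, 59 bases before the start, and 1 GGGCGG on the opposite strand. WNK2 held 1 CCAAT and no other of the 6 motifs. The second of 2 windows of 1110017D15Rik held GTTGCC 18 bases before the start and its reverse complement 1 base after it. GTTGCC is a part of the X-box bound by RFX factors, which regulate genes of cilia, and on either strand it was present in 12.7% of genes. The pair with 1 base between was present in 13 of the 27025 genes (0.0481%, first window of each), a count made after the match was seen. These matches are letters in a window and say nothing on binding in these ventricles.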

How the data were processed

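The authors deposited a table of linear signal intensity with a detection p-value for each row and array, and a value table of intensity whose columns equal a quantile normalisation of that signal, judging from the values. Per the labels' protocols, RNA was isolated on columns with DNase I and biotin-labelled for Illumina arrays. The scanner software is not given here. Replicates are numbered by accession and pair nothing.

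Intensities were corrected with the normal-exponential model of limma 3.58.1 (R 4.3.3), the mean and SD of background on each array being inferred from the detection p-values of the 14215 rows whose p-values are whole multiples of 1 step (tolerance 0.2% of it). An offset of 16, quantile normalisation and log2 followed, and a fold change on this scale understates the change of dim genes. Rows were kept where 3 or more arrays had a detection p-value under 0.05, and tested with 1 limma model of 4 group means over all 14 arrays, with Benjamini-Hochberg adjustment over 9408 rows. The fit was tested on simulated data. A group with 0 arrays above background gave only a bound on the fold: each of its arrays entered at the dimmest detected level of that array, or at the gene's own level if that was higher. Such a bound holds for the processing reported and leaves out the spread among arrays. Summed intensities are normalised values less the offset.

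The 7 genes, the lists, the markers and the motifs were chosen with earlier results of these data known. Named were all 7 genes, relatives called in either substrain (at most 4 per list and substrain, 1 of which is not reported here), the 3 rows most like each gene, the nearest neighbours, and rows whose fall lay among those of the 7. Other relatives of the 7 families (Ano1, Ano4, Ano6, Wnk1, Lgals3bp and Ces2g), the 3 larger and 3 next smaller falls, and a selection of the rows most like each gene were named after their values were seen, as was Ift88 in C57Bl/6N. So were the cardiomyocyte, endothelial, fibroblast, smooth muscle and ciliated cell markers given with a change. RefSeq tables of GRCm38.p6 gave names, order on the chromosome and promoter windows. Alternatives were other background corrections, median scaling, the deposited value table, an offset of 50, no filter, a detection p-value under 0.01, array weights, the arrays of 1 substrain only, and each array left out in turn.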

Additional observations from a re-analysis of the deposited data

Results flagged for a closer look

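In 1110017D15Rik, all 4 C57Bl/6J angiotensin II arrays lay above the mean of the C57Bl/6J shams and all 4 C57Bl/6N angiotensin II arrays lay below the mean of the C57Bl/6N shams, a fitted difference of the changes of -1.81 (C57Bl/6N minus C57Bl/6J). Its size is not measured, since 0 of the 4 C57Bl/6N angiotensin II arrays were above background, and with background inferred from all rows it was -0.19. This difference was not tested, since the C57Bl/6N arrays chose the gene, and without C57Bl/6J sham array 1 the C57Bl/6J change was -0.12 in place of 0.42. In Ift172, the highest of the 4 C57Bl/6J angiotensin II arrays stood apart from the others, with a gap of 0.864 of the group's whole range; chance gives such a gap in about 1 in 20 groups.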

How the results depend on the processing

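No paired analysis was possible because the labels give no replicate number. The count of the 7 genes called in C57Bl/6J was 0 in the processing reported and under every alternative but array weights, where it was 1 (IFT81), and it was 0 without each array in turn. The count of all rows called in C57Bl/6J was 129, and became 67 with background inferred from all rows, 75 with no filter, 70 with the C57Bl/6J arrays only and 559 with array weights. With arrays left out it ran from 1 (C57Bl/6J sham 2 left out) to 179 (C57Bl/6N angiotensin II 4 left out). It was 32 and 45 with C57Bl/6J sham 1 or 3 left out, and 85 and 62 with C57Bl/6J angiotensin II 3 or 4 left out. In C57Bl/6N 1634 rows were called, 2665 with array weights, and 962 (without C57Bl/6N sham 1, with 981 and 968 without C57Bl/6N angiotensin II 1 or 3) to 2270 (without C57Bl/6J angiotensin II 1) with arrays left out. The 2 relatives called in C57Bl/6J became 0 with background from all rows, with no filter and with the C57Bl/6J arrays only, 1 with no background correction and with the deposited value table, 5 with array weights, and 0 to 3 with arrays left out. The 9 relatives called in C57Bl/6N became 18 with array weights and ran from 4 to 16 with arrays left out. Of the 12 calls followed among relatives and neighbours, 8 were lost without at least 1 array and 4 were kept. With median scaling the share of called rows that were higher was 47.8% in C57Bl/6J, in place of 72.9%, and 63.4% in C57Bl/6N, in place of 54.4%. Signs turned for WNK2 in C57Bl/6J, where -0.03 became 0.0361 with background from all rows and ran from -0.31 to 0.14 with arrays left out. They turned for 1110017D15Rik in C57Bl/6J, where 0.42 ran from -0.12 to 0.75 with arrays left out. The cause was not tested. The median change of the 7 genes kept its sign throughout, -0.35 to -0.14 in C57Bl/6J and -1.41 to -1.08 in C57Bl/6N. Signal close to background limits what 1110017D15Rik, PKD2L2, Lgals6, Ano6 and Dnaic1 can show, and 3 or 4 arrays a group limit every comparison.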
